A study of Homo sapiens with 17 samples.

Results

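CST1 and CST4 are 2 of the 17687 genes measured here, and each has 1 probe set (Entrez 1469 and 1472) among the 24351 of the array. They were chosen by gene symbol after earlier results of these arrays had shown them among the lowest genes of Maraviroc IC20 against ethanol. The values of that comparison are therefore given as a description with no test. The series holds 17 Affymetrix arrays of human breast lines. MDA-MB-231 is a line from a triple-negative breast carcinoma with mesenchymal traits, and MCF10 is known as a non-tumorigenic mammary line. MDA-MB-231 cells were given Maraviroc at IC20 or IC50, DZH_2 at IC20 or IC50, the solvent of DZH_2 (DMSO) or the solvent of Maraviroc (ethanol), with 2 arrays in each group, and 1 array was untreated. MCF10 has 4 arrays: untreated, DMSO, and DZH_2 at each of its doses. All cells were seeded for 24 h, and treatment lasted 48 h. Maraviroc is an approved antiviral drug, DZH_2 is known here by its code name alone, and IC20 and IC50 stand for doses with 20% and 50% inhibition. Which concentrations these were is not stated in the labels. Nothing says that replicates came from separate cultures, so p-values reflect array-to-array spread alone, possibly technical in part.

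Cystatins are tight, reversible inhibitors of papain-like cysteine proteases such as cathepsins B, L and K. CST1 encodes cystatin SN and CST4 encodes cystatin S, secreted proteins first known from saliva and tears. With CST2 (cystatin SA) they form a group of near-identical paralogs within a cluster of cystatin genes on chromosome 20. CST3 (cystatin C), of the same cluster, is made by most cells. Raised CST1 has been described in several carcinomas, breast cancer among them. Probe sets for such close relatives may share target RNA, so CST1 and CST4 are treated as a pair and neither is certain as a single gene.

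The signal of both genes stood above background in MDA-MB-231 cells that had no compound and dropped to the level of the negative controls on every array with one. The limit used for "near the negative controls" is 6.10 on the log2 scale, the 75th percentile of 612 negative control probe sets over all arrays, whose median is 4.89. CST1 and CST4 lay above it on 5 of 5 control arrays of MDA-MB-231, on 0 of 8 treated arrays and on 0 of 4 MCF10 arrays. The control arrays were themselves within the upper range of the negative controls: CST1 exceeded 87.9% to 95.4% of them there, and CST4 86.4% to 94.6%. On the treated arrays CST1 exceeded 10.5% to 72.1% of the negative controls and CST4 17.97% to 70.4%. Both genes were thus low at best on these arrays, and their differences end at the floor of the assay. In bulk RNA, fewer cells with the transcripts and less transcript per cell cannot be told apart.

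CST1 had log2 signals of 8.34 in untreated MDA-MB-231 cells, 6.75 and 7.52 in DMSO, and 7.80 and 7.78 in ethanol. With DZH_2 it stood at 4.01 and 5.78 at IC20 and at 3.62 and 5.62 at IC50. With Maraviroc it stood at 4.11 and 4.84 at IC20 and at 4.203 and 3.33 at IC50. The highest treated array, a DZH_2 IC20 array, was 0.97 below the lowest control array, a DMSO array, so treated and control arrays did not overlap.

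CST4 had log2 signals of 8.22 in untreated MDA-MB-231 cells, 6.59 and 7.18 in DMSO, and 7.67 and 7.20 in ethanol. With DZH_2 it stood at 4.52 and 5.47 at IC20 and at 4.997 and 5.69 at IC50. With Maraviroc it stood at 4.99 and 5.11 at IC20 and at 4.74 and 3.63 at IC50. The groups again did not overlap, with a gap of 0.90 between the highest treated and the lowest control array. Of all 17687 genes, 0.667% had all 8 treated arrays below all 5 control arrays. The arrays by which the pair came to notice are part of that count, so it describes the pair and supports nothing. With the Maraviroc IC20 and ethanol arrays set aside, the other 6 treated arrays lay below the DMSO and untreated arrays in both genes and in 8.83% of all genes.

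**Figure D1:**
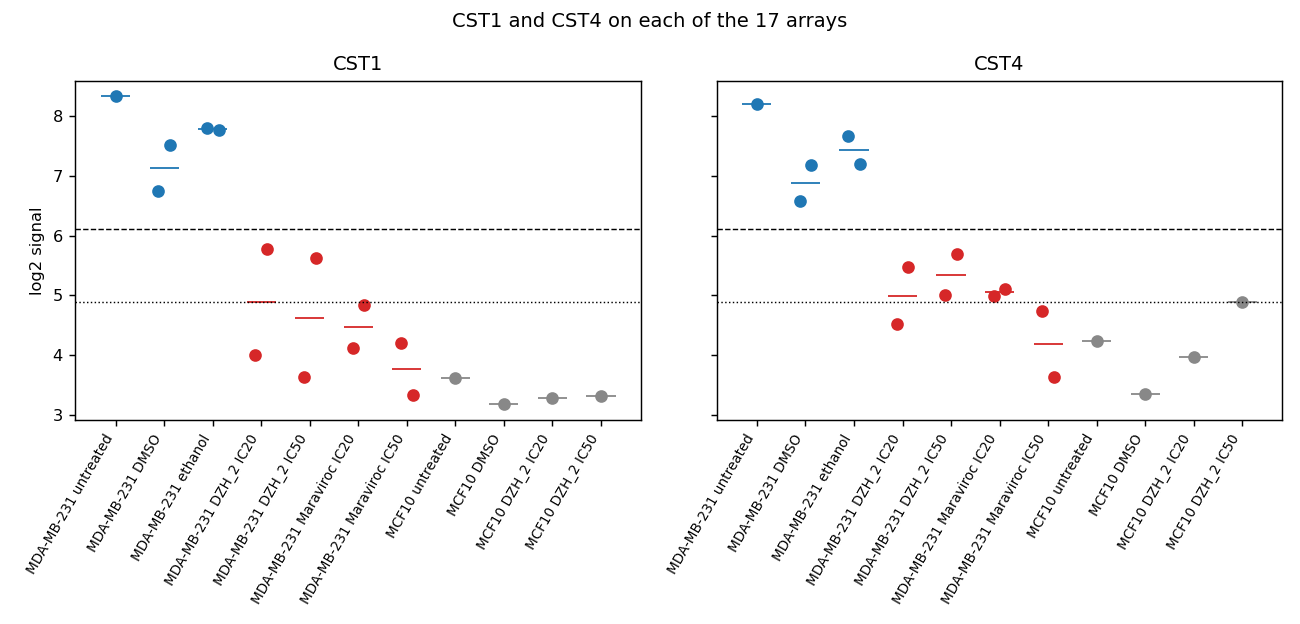
Log2 signal of CST1 (left) and CST4 (right) on each array by group, with a bar at the group mean (MDA-MB-231 controls in blue, treated MDA-MB-231 in red, MCF10 in grey). The dashed and dotted lines are the 75th percentile (6.10) and the median (4.89) of the negative controls, and the 5 blue points stand above the dashed line and the others below it in each panel.

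In the order of group means the untreated array came first, ethanol next and DMSO last among the controls. For CST1 these means were 8.34, 7.79 ± 0.02 (SD, n = 2) and 7.14 ± 0.54 (SD, n = 2). The treated groups followed as DZH_2 IC20 at 4.89 ± 1.26 (SD, n = 2), DZH_2 IC50 at 4.62 ± 1.41 (SD, n = 2), Maraviroc IC20 at 4.47 ± 0.51 (SD, n = 2) and Maraviroc IC50 at 3.77 ± 0.62 (SD, n = 2). Each of these treated neighbours overlapped the next. For CST4 the control means were 8.22, 7.43 ± 0.33 (SD, n = 2) and 6.89 ± 0.42 (SD, n = 2). The treated order differed, with DZH_2 IC50 at 5.35 ± 0.49 (SD, n = 2), Maraviroc IC20 at 5.05 ± 0.09 (SD, n = 2), DZH_2 IC20 at 4.99 ± 0.67 (SD, n = 2) and Maraviroc IC50 at 4.19 ± 0.78 (SD, n = 2). These neighbours overlapped too. The ethanol and DMSO arrays did not overlap in either gene, though in CST4 they nearly met (7.20 and 7.18). The share of all genes with this was not counted, so no order of the solvents is read from it. Values below the limit of 6.10 have no reliable order, and the treated groups all lie there.

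Both cystatin genes fell with Maraviroc IC50. CST1 fell by a log2 difference of -4.02 ± 0.64 (SE) against ethanol and CST4 by -3.24 ± 0.42 (SE), with adjusted p = 5.56e-04 and 1.3e-04 by limma. The treated means lie near the negative controls, so the fold is given for the ethanol mean over the limit. It was 3.22 for CST1 and 2.51 for CST4, without the spread between arrays. In this comparison 15% of all genes were called lower and 27% were called in either direction, so a call is common here. With every value under the limit raised to it the log2 differences were -1.69 and -1.33 (limma adjusted p = 0.00407 and 0.00868). The treated values of the pair are then all equal, so they add no spread between arrays and these p-values can be too small. The ethanol arrays also belong to the comparison by which the pair was noticed.

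Against the DMSO arrays, which that comparison did not use, Maraviroc IC50 gave -3.37 ± 0.64 for CST1 (95% interval -4.76 to -1.99, limma adjusted p = 0.00145). CST4 gave -2.70 ± 0.42 (95% interval -3.61 to -1.79, limma adjusted p = 3.71e-04). The DMSO mean was 2.04-fold above the limit for CST1 and 1.72-fold for CST4, again without the spread between arrays. Both genes fell, where 17.2% of all genes were called lower and 32% in either direction. The Maraviroc IC50 arrays had log2 signals less widely spread over all genes, with interquartile ranges of 4.05 and 4.07 where 11 further arrays of the line had 4.21 to 4.65. Their negative controls had a higher median (5.08 and 5.16, against 4.62 to 4.96). The part of this shift in the result was not tested. With every value under the limit raised to it, the difference from DMSO was -1.03 for CST1 (limma adjusted p = 0.0175) and -0.78 for CST4 (limma adjusted p = 0.0424). Here too the treated values become equal and add no spread, so these p-values can be too small.

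Maraviroc IC20 against ethanol, the comparison that brought the pair to notice, had log2 differences of -3.32 for CST1 and -2.38 for CST4. As measured, these were the 2nd and the 3rd lowest of all genes, with the treated side under the limit. Both arrays lay below both ethanol arrays, as in 15.2% of all genes. The steps from Maraviroc IC20 to IC50 lie below the limit in both genes.

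DZH_2 gave lower values of both genes at both doses that did not pass the threshold. At IC20 the log2 difference from DMSO was -2.24 ± 0.64 for CST1 (95% interval -3.63 to -0.86, limma adjusted p = 0.137). It was -1.89 ± 0.42 for CST4 (95% interval -2.81 to -0.98, limma adjusted p = 0.0614). At IC50 it was -2.51 ± 0.64 for CST1 (95% interval -3.90 to -1.13, limma adjusted p = 0.0727) and -1.54 ± 0.42 for CST4 (95% interval -2.45 to -0.63, limma adjusted p = 0.0905). In all these cases both DZH_2 arrays lay below both DMSO arrays. The share of all genes with such a separation was not counted, so it is a description alone. Of all genes, 0.871% were called at IC20 (0.435% as lower) and 1.57% at IC50 (0.984% as lower), so few genes pass here. All 4 DZH_2 arrays lie under the limit. The DMSO mean was 2.04-fold above the limit for CST1 and 1.72-fold for CST4. These folds leave out the spread between arrays, so they are no lower bound on the fall. With every value under the limit raised to it the log2 differences were -1.03 for CST1 and -0.78 for CST4 at each dose, none called (limma adjusted p = 0.164 and 0.263 at IC20, 0.128 and 0.21 at IC50).

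The DZH_2 replicates of CST1 were uneven below the limit, and the SD of these groups was the widest of the pair's. The shared spread also holds the Maraviroc IC50 arrays. Without those arrays limma called CST4 at IC20 (adjusted p = 0.0155) and both genes at IC50 (adjusted p = 0.0357 for CST1 and 0.0286 for CST4), and CST1 at IC20 was not called. With the 5 control arrays as 1 group both genes were called at both doses, at -2.74 and -2.38 for CST1 and CST4 at IC20 and -3.01 and -2.02 at IC50. That control group holds the ethanol arrays, which are not the solvent of DZH_2 and belong to the comparison by which the pair was noticed, so these calls are not independent of the choice.

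**Figure D2:**
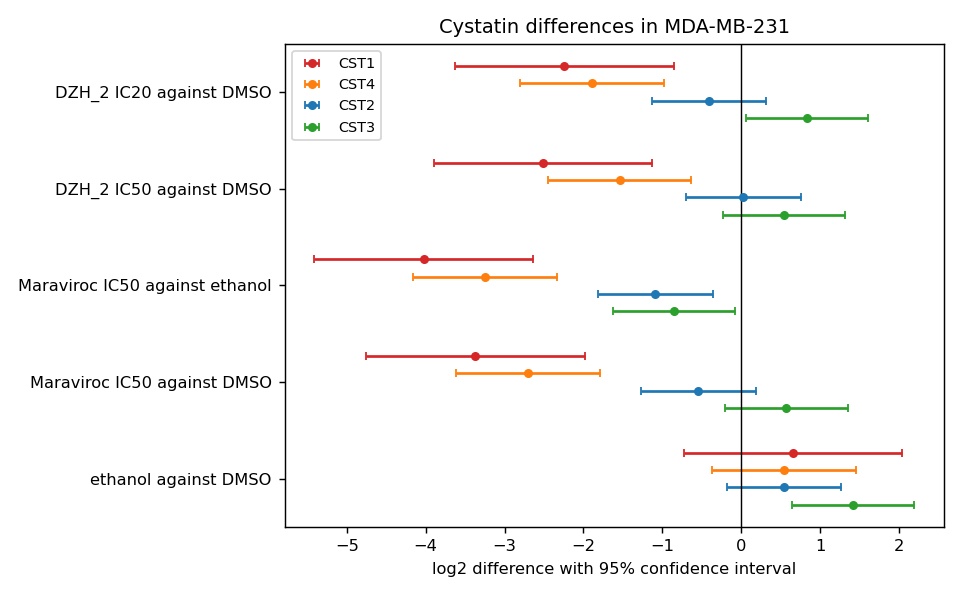
Log2 differences of CST1, CST4, CST2 and CST3 in 5 comparisons of MDA-MB-231 groups of 2 arrays, with 95% confidence intervals from limma. CST1 and CST4 lie left of 0 in the 4 comparisons with a compound, down to -4.02 for CST1 in Maraviroc IC50 against ethanol, and their intervals span 0 for ethanol against DMSO.

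The compounds were set against each other at IC50, each relative to its own solvent. The log2 difference with DZH_2 minus that with Maraviroc was 1.51 ± 0.90 for CST1 (95% interval -0.45 to 3.47, limma adjusted p = 0.402) and 1.70 ± 0.59 for CST4 (95% interval 0.41 to 2.99, limma adjusted p = 0.118). Neither passed, where 6.17% of all genes did. All arrays of both compounds lie under the limit here, so the size of a compound difference could not be measured. With every value under the limit raised to it the contrast was 0.65 for CST1 and 0.54 for CST4, which are the values of ethanol minus DMSO, and neither was called (limma adjusted p = 0.381 and 0.498). The solvents were compared too. Ethanol minus DMSO was 0.65 ± 0.64 for CST1 (95% interval -0.73 to 2.04, limma adjusted p = 0.881) and 0.54 ± 0.42 for CST4 (95% interval -0.37 to 1.46, limma adjusted p = 0.828). By limma 0 of 17687 genes were called between the solvents, a share of 0%, with 1352 (7.64%) at an unadjusted p under 0.05.

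Over the 8 treated MDA-MB-231 arrays the signals of CST1 and CST4 had a Pearson correlation of 0.83. All these values lie under the limit, so the correlation describes signal near the negative controls and not transcript levels. The points share the array design and any array-wide shift in signal, and close paralogs may share target RNA.

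**Figure D3:**
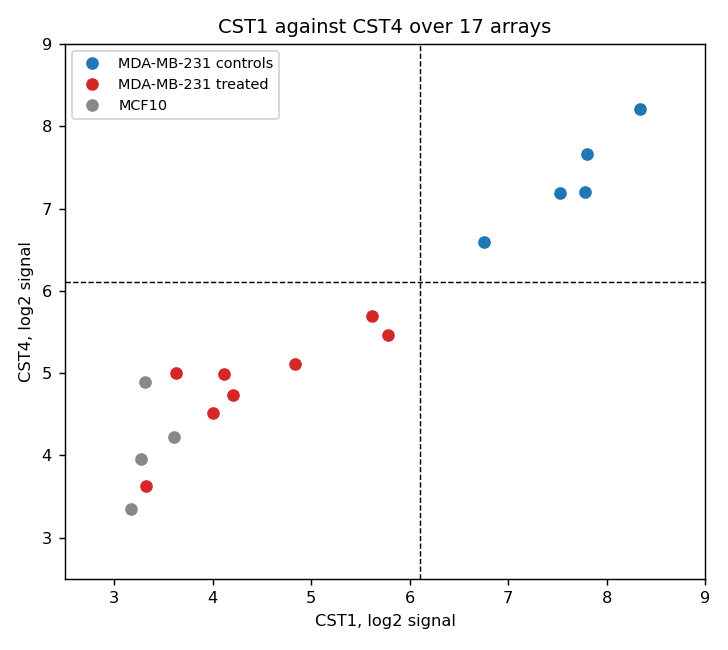
CST4 against CST1, both as log2 signal, for 5 control and 8 treated MDA-MB-231 arrays and 4 MCF10 arrays, with dashed lines at 6.10, the 75th percentile of the negative controls. The control arrays fill the upper right corner and the treated and MCF10 arrays the lower left, with no array in the other corners.

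CST2 stayed above the limit on all 13 MDA-MB-231 arrays. It stood at 9.51 untreated, 8.59 and 7.80 in DMSO, and 9.12 and 8.35 in ethanol. With DZH_2 it was 7.72 and 7.85 at IC20 and 8.07 and 8.37 at IC50. With Maraviroc it was 7.59 and 7.95 at IC20 and 7.47 and 7.83 at IC50. Treated and control arrays overlapped by 0.57. CST2 fell with Maraviroc IC50 against ethanol (-1.09 ± 0.34, limma adjusted p = 0.0292), but was not called against DMSO (-0.54 ± 0.34, limma adjusted p = 0.244). The call against ethanol ended without Maraviroc IC50 replicate 1 (-0.91, limma adjusted p = 0.106), without ethanol replicate 1 (-0.70, limma adjusted p = 0.246), with median centring (-0.92, limma adjusted p = 0.0547) and with quantile normalization (-0.83, limma adjusted p = 0.0824). With DZH_2 it was -0.41 ± 0.34 at IC20 and 0.03 ± 0.34 at IC50, neither called.

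CST3, whose product is the main extracellular cystatin of most tissues, was high on every array, from 12.1 to 13.1 with a compound and from 11.8 to 13.8 without. Its log2 difference was 0.83 ± 0.36 with DZH_2 IC20, 0.55 ± 0.36 with DZH_2 IC50 and -0.85 ± 0.36 with Maraviroc IC50 against ethanol, none called (limma adjusted p = 0.373, 0.518 and 0.102). Its sign with Maraviroc IC50 depended on the solvent, being 0.57 ± 0.36 against DMSO. Its arrays with and without a compound overlapped.

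CST7 encodes cystatin F, an inhibitor of immune cells that is directed to lysosomes. It stood at 8.62 and 8.34 in DMSO, 7.57 and 7.06 in ethanol, 9.83 and 10.5 with DZH_2 IC50 and 6.19 and 6.09 with Maraviroc IC50. It fell with Maraviroc IC50 against DMSO (-2.34 ± 0.41, limma adjusted p = 8.5e-04) and missed the threshold against ethanol (-1.17 ± 0.41, limma adjusted p = 0.0515). It was higher with DZH_2 IC50 without a call (1.68 ± 0.41, limma adjusted p = 0.0652). The compounds differed at IC50 by 2.85 ± 0.58 (limma adjusted p = 0.0124), a call that ended without DZH_2 IC50 replicate 2 (2.52), DMSO replicate 2 (2.71) or ethanol replicate 1 (2.60), at limma adjusted p = 0.0637, 0.0664 and 0.0605. With Maraviroc IC20 it stood at 8.91 and 8.33, above both ethanol arrays, where CST1 and CST4 stood below them. The share of all genes with both Maraviroc IC20 arrays above both ethanol arrays was not counted, so this is a description alone.

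Of the 18 cystatin superfamily genes listed, all measured, 6 were above the limit in the MDA-MB-231 controls: CST1, CST2, CST3, CST4, CST7 and CSTB, an intracellular inhibitor. With DZH_2, 0 of 18 were called at either dose, where 0.871% and 1.57% of all genes were, with a median log2 difference of 0.10 at IC20 and 0.16 at IC50 (0.00 and 0.04 over all genes). With Maraviroc IC50 against ethanol 3 fell, CST1, CST2 and CST4, and 0 rose (median 0.10, against 0.11 over all genes), where 15% of all genes were called lower, a share close to that of the list. Against DMSO, where 17.2% of all genes were called lower and 32% in either direction, CST1, CST4 and CST7 fell. CSTB rose (0.85 ± 0.29, limma adjusted p = 0.0383). HRG, which encodes a plasma protein, was called higher (1.11 ± 0.34, limma adjusted p = 0.0232), but both group means (4.90 and 6.01) lie under the limit, and with values raised to it the difference was 0.05 (limma adjusted p = 0.294). The call of HRG also ended with array weights (limma adjusted p = 0.0751) and without Maraviroc IC50 replicate 1 (0.91), DMSO replicate 1 (1.21) or DMSO replicate 2 (0.9997), at limma adjusted p = 0.0955, 0.0714 and 0.123. The call of CSTB ended without Maraviroc IC50 replicate 1 (0.62), DMSO replicate 1 (0.74) or DMSO replicate 2 (0.96), at limma adjusted p = 0.167, 0.192 and 0.0839. The remaining 12 listed genes stood near the negative controls in the MDA-MB-231 control arrays.

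**Figure D4:**
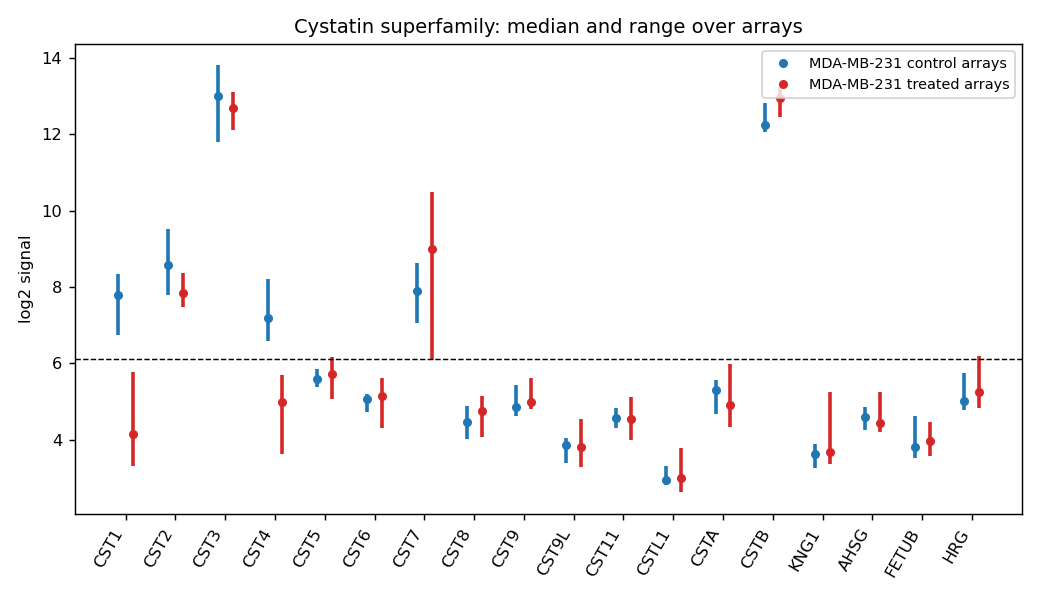
Median (point) and full range (bar) of log2 signal of each cystatin superfamily gene over 5 control (blue) and 8 treated (red) MDA-MB-231 arrays, with a dashed line at 6.10, the 75th percentile of the negative controls. In CST1 and CST4 the blue and red bars are apart, on opposite sides of the line, and in the other 16 genes they overlap.

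Outside the cystatins, 0 of 4 protein-coding neighbours were called in any of the tested MDA-MB-231 comparisons, in which 0% to 32% of all genes were called by limma. Maraviroc IC20 against ethanol was not tested. In the RefSeq table CST4 and CST1 lie between CST3 and CST2 on chromosome 20. The 4 neighbours lie within 500 kb, and all were measured: NXT1, GZF1, NAPB and GGTLC1. Their means over the control and treated arrays were 7.28 and 7.47, 7.18 and 7.46, 6.96 and 7.07, and 5.03 and 5.09.

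Proteases inhibited by members of the cystatin superfamily were taken as a list of 12, the papain-like cathepsins and legumain, all measured. A place on the list does not make a protease a target of the products of CST1 and CST4. With DZH_2 1 of 12 rose at each dose and 0 fell (median log2 difference 0.26 at IC20 and 0.21 at IC50, against 0.00 and 0.04 over all genes), where 0.871% and 1.57% of all genes were called. With Maraviroc IC50 against ethanol 4 rose and 3 fell (median 0.32, against 0.11 over all genes), where 27% of all genes were called and 15% as lower. Against DMSO 5 rose and 2 fell (median 0.43, against 0.12 over all genes), where 32% of all genes were called and 17.2% as lower.

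LGMN, which encodes the lysosomal asparaginyl protease legumain, was the gene that rose with DZH_2. It stood at 10.1 untreated, 9.83 and 10.4 in DMSO, and 10.6 and 10.8 in ethanol. With DZH_2 it was 11.3 and 12.1 at IC20 and 11.4 and 11.9 at IC50, and with Maraviroc 11.0 and 10.8 at IC20 and 11.9 and 12.01 at IC50. All 8 treated arrays were thus above all 5 control arrays, by a narrow margin between Maraviroc IC20 (10.81) and ethanol (10.78). The share of all genes with treated arrays above control arrays was not counted. It rose by 1.61 ± 0.32 at DZH_2 IC20, 1.57 ± 0.32 at DZH_2 IC50 and 1.26 ± 0.32 at Maraviroc IC50 against ethanol (limma adjusted p = 0.0388, 0.0346 and 0.0105). The DZH_2 calls rest on single arrays and also ended with the floor at the limit (limma adjusted p = 0.15 and 0.121), and at IC20 with the arrays compared alone (limma adjusted p = 0.0556). The IC20 call ended without DZH_2 IC20 replicate 2 (1.23, limma adjusted p = 0.249), DMSO replicate 1 (1.33, limma adjusted p = 0.356) or DMSO replicate 2 (1.88, limma adjusted p = 0.15). The IC50 call ended without DZH_2 IC50 replicate 1 (1.84), DZH_2 IC50 replicate 2 (1.30), DMSO replicate 1 (1.29) or DMSO replicate 2 (1.85), at limma adjusted p = 0.096, 0.167, 0.321 and 0.1. The Maraviroc call ended without ethanol replicate 1 (1.16, limma adjusted p = 0.0723) but held against DMSO (1.84 ± 0.32, limma adjusted p = 7.58e-04).

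With Maraviroc IC50 against ethanol CTSK, CTSL, CTSS and LGMN rose, and CTSC, CTSH and CTSW fell. Against DMSO CTSB, CTSK, CTSL, CTSZ and LGMN rose, and CTSC and CTSH fell. The calls of CTSC and LGMN against DMSO held under the 12 settings tried, and those of CTSB (9 of 12), CTSK, CTSL and CTSZ (8 of 12 each) and CTSH (6 of 12) did not hold under all. Against ethanol CTSK, the collagen-degrading cathepsin K, rose by 1.96 ± 0.38 (limma adjusted p = 0.00232), from 5.79 and 5.85, near the negative controls, to 7.02 and 8.54. CTSL, the lysosomal endopeptidase cathepsin L, rose by 1.79 ± 0.43 (limma adjusted p = 0.00834), from 11.0 on each ethanol array to 12.3 and 13.4. CTSC, the dipeptidyl peptidase cathepsin C, fell by -1.47 ± 0.29 (limma adjusted p = 0.00233). CTSB, cathepsin B, was at 12.9 and 13.3 in ethanol and 14.1 on each Maraviroc IC50 array, a difference of 0.95 ± 0.35 that was not called (limma adjusted p = 0.0624). Against DMSO it was 1.29 ± 0.35 (limma adjusted p = 0.0127), a call that ended without DMSO replicate 1 (1.28, limma adjusted p = 0.0701) or replicate 2 (1.31, limma adjusted p = 0.0599). The call of CTSL against ethanol ended without Maraviroc IC50 replicate 2 (1.24, limma adjusted p = 0.0586) and with the floor at the limit (limma adjusted p = 0.062).

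The other calls against ethanol were less steady. CTSW lay under the limit in both groups (5.81 in ethanol and 5.01 with Maraviroc IC50), its difference of -0.79 became 0 with values raised to the limit, and its call held in 4 of 12 settings. It ended without ethanol replicate 1 (-0.51), Maraviroc IC50 replicate 1 (-0.78) or Maraviroc IC50 replicate 2 (-0.81), at limma adjusted p = 0.308, 0.0922 and 0.0813. CTSH (-1.93) held in 8 of 13 settings. Its call ended without Maraviroc IC50 replicate 2 (-0.96), ethanol replicate 1 (-1.98) or ethanol replicate 2 (-1.88), at limma adjusted p = 0.101, 0.0634 and 0.0726. CTSS (0.85) also held in 8 of 13, and its call ended without the same arrays (0.76, 0.84 and 0.87, limma adjusted p = 0.106, 0.135 and 0.12). In DZH_2 CTSB and CTSL were not called, at 0.27 ± 0.35 and 0.71 ± 0.43 at IC20 and -0.02 ± 0.35 and 0.54 ± 0.43 at IC50.

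**Figure D5:**
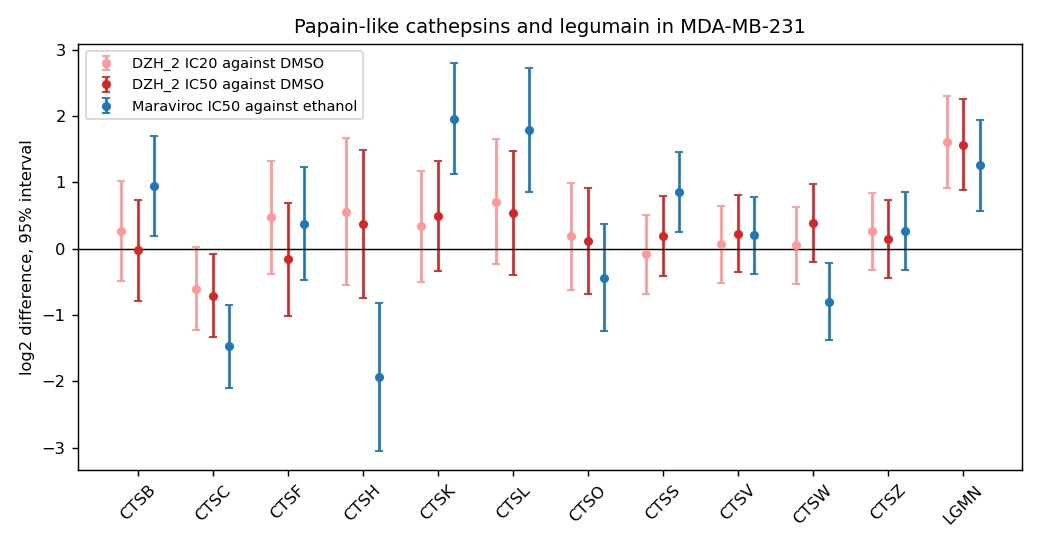
Log2 differences with 95% confidence intervals from limma for 11 papain-like cathepsins and legumain (LGMN) in MDA-MB-231, for both DZH_2 doses against DMSO and Maraviroc IC50 against ethanol. LGMN lies above 0 in all 3 comparisons, at 1.61, 1.57 and 1.26, while CTSK and CTSL are raised with Maraviroc IC50 and CTSC is lowered.

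In the arrays titled MCF10 both cystatins were near the negative controls throughout. CST1 stood at 3.61 untreated, 3.17 in DMSO, 3.27 with DZH_2 IC20 and 3.31 with DZH_2 IC50. CST4 stood at 4.23, 3.34, 3.96 and 4.89 in the same order. With 1 array a group there is no test and no replicate check. Over the DMSO and untreated arrays CST1 was -4.15 and CST4 -3.54 in MCF10 relative to MDA-MB-231, and 24% of all genes were lower there by at least 1. CST4 was 1.55 higher at DZH_2 IC50 than in DMSO, where 9.38% of all genes were higher by at least 1, and both values lie under the limit, where steps have no reliable size. CST2 (7.54 to 7.94) and CST3 (12.99 to 13.98) were above the limit in these arrays.

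The identity of these arrays limits that comparison, since their titles name MCF10 and their cell line field names MDA-MB-231. Of 8 basal mammary markers measured, 5 were, by group mean, above the limit in their untreated and DMSO arrays (KRT5, ITGB4, TRIM29, S100A2 and CDH3) and 3 in the MDA-MB-231 controls (ITGB4, S100A2 and EPCAM). In the arrays titled MCF10 the epithelial genes CDH1 and EPCAM were near the negative controls (3.62 to 5.55 and 4.87 to 5.61). Of 7 fibroblast markers measured, 6 were above the limit in the untreated and DMSO arrays titled MCF10, by mean. In the MDA-MB-231 controls 2 were. By array, PDGFRB was above it on 2 of 4 arrays titled MCF10 and COL1A1 on 3 of 4. MCF10 minus MDA-MB-231 over DMSO and untreated arrays ran from -0.12 (COL1A2) to 9.07 (MMP2). All 5 mesenchymal markers were above the limit in both by mean, ZEB1 on 3 of 4 arrays titled MCF10. Their differences, computed likewise, ran from -5.15 (ZEB1) to -0.42 (CD44). Of 6 salivary secretory markers listed, 4 were measured, and by mean of the control arrays 0 were above the limit in either line. By array, STATH was above it on 3 of 4 arrays titled MCF10 and SMR3B on 1 of 4. In the MDA-MB-231 controls CST1 and CST4 were above the limit without the 4 measured salivary genes. With Maraviroc IC50 all 5 mesenchymal markers also fell against ethanol (median -2.60), where 15% of all genes were called lower. With DZH_2 none of the 5 was called, where 0.435% of all genes were called lower at IC20 and 0.984% at IC50.

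Likeness to the pair was measured by the Pearson correlation with the mean log2 signal of CST1 and CST4 over the 13 MDA-MB-231 arrays, among 5476 genes with an SD of at least 0.5. The highest were SOX9 (0.92), ANKH (0.90), DUSP6 (0.86), LAPTM5 (0.86), SLC38A4 (0.85) and CD14 (0.84). SOX9 encodes a transcription factor of progenitor cells, ANKH a membrane protein that exports citrate and pyrophosphate, and DUSP6 a phosphatase that acts on ERK. The 13 arrays fall into treated and control arrays, and the pair is under the limit on the treated ones. Over the 8 treated arrays alone the correlations were 0.88 for SOX9, 0.87 for ANKH, 0.73 for DUSP6 and 0.62 to 0.67 for the others. All genes of this paragraph were chosen by correlations that include these 8 arrays. Values over the treated arrays alone are therefore a description and no separate check. SOX9 ranged from 8.75 to 10.2 on the treated arrays and from 10.2 to 10.6 on the control arrays, and the ranges touched. The most negative were CHKA (-0.91), which encodes choline kinase alpha, INSIG1 (-0.87), a sterol-regulated brake on sterol synthesis, and HDAC5 (-0.86), a histone deacetylase. Over the 8 treated arrays alone these were -0.73 for CHKA, -0.38 for INSIG1 and -0.30 for HDAC5. CHKA ranged from 10.9 to 11.9 on the treated arrays and from 9.74 to 10.6 on the control arrays, without overlap. The share of all genes with such a rise was not counted. CHKA was picked by its correlation with a pair that splits these arrays, so the separation is a description alone. Over all 17 arrays the highest were SLC38A4 (0.87, under the limit on every MDA-MB-231 array), TLR3 (0.86) and TNC (0.86). Over the treated MDA-MB-231 arrays alone these were 0.67, 0.41 and 0.78.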

How the data were processed

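The deposited table holds log2 signal per probe set for 17 arrays. Per the labels' protocols, Trizol RNA was labelled with the GeneChip WT PLUS kit; the authors' summarisation, normalization and genome build are not named in the labels, and the log2 values were used as deposited. Platform annotation paired 17709 probe sets with 1 gene symbol, 0 of which changed on update by Entrez identifier. For 20 genes the probe set with the highest mean was kept, leaving 17687 genes. One limma 3.58.1 model covered the 6 MDA-MB-231 groups with replicates, 12 arrays in all (R 4.3.3; 6 residual degrees of freedom; 2-sided; Benjamini-Hochberg over all genes; called at adjusted p under 0.05). The fit was tried on simulated data with independent noise per gene. That simulation held no array-wide shift and no floor, so it says nothing about either. Groups follow the sample titles. Arrays carry no counting depth, and their number limits the precision. Figures used Python 3.11.15 and matplotlib 3.10.9. The members, lists and tests were chosen with earlier results of these data known. Genes named are the pair, CST2, CST3, list members past the threshold (for proteases up to 4 with the smallest p, with CTSB and CTSL always), cystatins with the highest signal, and those most like the pair. CHKA and SOX9 ranges were added after their values were seen. Alternatives were scaling, the arrays fitted, weights, the prior, a signal filter, a floor, pooled controls, a replicate block and leaving out each array.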

Additional observations from a re-analysis of the deposited data

Results flagged for a closer look

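DZH_2 minus DMSO had opposite signs in the lines as measured, negative in MDA-MB-231 and positive on the single MCF10 array, in both genes and at both doses. The difference between the lines was not tested. For CST1 the log2 difference was -2.24 in MDA-MB-231 and 0.10 in MCF10 at IC20, a contrast of -2.345, and -2.51 and 0.14 at IC50, a contrast of -2.65. For CST4 it was -1.89 and 0.61 at IC20, a contrast of -2.51, and -1.54 and 1.55 at IC50, a contrast of -3.09. All MCF10 values lie under the limit of 6.10, and with values raised to it the 4 MCF10 differences were 0. MCF10 untreated minus DMSO was 0.44 for CST1 and 0.88 for CST4, larger than all of these MCF10 differences except that of CST4 at IC50. No direction can therefore be read from the MCF10 arrays.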

How the results depend on the processing

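The falls of CST1 and CST4 with Maraviroc IC50 kept their direction and call under every alternative run, 9 against ethanol and 8 against DMSO. Their direction also held without each array in turn. The floor is among the alternatives, and its calls carry little weight, since it makes all treated values of the pair equal. Without single arrays, Maraviroc IC50 against ethanol ranged from -4.46 to -3.59 for CST1 and -3.80 to -2.69 for CST4, and against DMSO from -3.81 to -2.93 and -3.25 to -2.15. Maraviroc IC20 against ethanol ranged from -3.68 to -2.95 and -2.62 to -2.15. DZH_2 against DMSO was uncalled whichever single array was left out, from -3.13 to -1.35 for CST1 and -2.37 to -1.42 for CST4 at IC20 and from -3.51 to -1.51 and -1.89 to -1.19 at IC50. The comparison of the compounds at IC50 ranged from 0.51 to 2.51 for CST1 and from 1.15 to 2.26 for CST4, called for CST4 without Maraviroc IC50 replicate 1 alone, where both compounds' arrays lie under the limit of 6.10. With values raised to the limit it was 0.65 and 0.54, equal to ethanol minus DMSO. Ethanol minus DMSO ranged from 0.27 to 1.04 and 0.25 to 0.84.

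The DZH_2 values gained calls under other settings, and the cause was not tested beyond these. CST4 at IC20 (-1.89) was called with the arrays compared alone (adjusted p by limma 0.0453), without the Maraviroc IC50 arrays (0.0155) and with array weights (0.0131). At IC50 CST1 (-2.51) and CST4 (-1.54) were called under the same 3 settings (0.0324, 0.0357 and 0.0206; 0.0285, 0.0286 and 0.0217). With all 5 control arrays the values were -2.74 and -2.38 at IC20 and -3.01 and -2.02 at IC50, all called. The replicate block called CST1 at DZH_2 IC50 (-2.51, adjusted p by limma 0.0427) and changed no other call of the pair. The numbers share no stated source, and deviations of same-numbered replicates correlated at -0.15 to 0.30 over the 15 pairs of groups. The highest, 0.30, was between DZH_2 IC20 and DZH_2 IC50. In these groups CST1 was lower on replicate 1 (4.01 and 3.62) than on replicate 2 (5.78 and 5.62). The DZH_2 doses may therefore not be independent of each other.

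With values under 6.10 raised to it, Maraviroc IC20 against ethanol was -1.69 for CST1 and -1.33 for CST4. MCF10 against MDA-MB-231 was -1.43 and -1.225, and CST4 in MCF10 was 0 at both DZH_2 doses. The number of genes called went from 154 at DZH_2 IC20 to between 37 and 495 over the alternatives and between 2 and 131 without single arrays, and from 277 at IC50 to between 50 and 942 and between 2 and 22. For Maraviroc IC50 it went from 4778 to 2399 with the arrays compared alone and 2995 without ethanol replicate 1, and against DMSO from 5662 to 3648 and to 3638 without DMSO replicate 1. For the comparison of compounds, 1091 became 568 with the floor, 707 with the arrays compared alone and 448 to 1981 without single arrays, and for the solvents 0 became 7 with the floor. Median centring moved the median of all genes from 0.11 to 0.28 for Maraviroc IC50 against ethanol, where CST1 and CST4 were -3.86 and -3.08 centred. Of the 6 genes most like the pair by Pearson, 5 were among the 6 by Spearman. As an alternative chosen after seeing the data, without the Maraviroc IC50 arrays 142 genes in place of 118 had all treated arrays below all control arrays, both cystatins among them.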
